A study of Mus musculus with 24 samples.

Results

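The cortex of young ApoD knockout mice was compared with that of young wild-type mice on 6 of the 24 arrays of the series, chosen by their titles. The 3 KO arrays carried RNA from the cerebral cortex of male ApoD-KO mice aged 100 days, and the 3 WT arrays RNA from the cortex of male wild-type mice of that age. Both genotypes are labelled C57BL/6J, and the labels describe the knockout allele no further. Each array was hybridized with a pool of equal amounts of RNA from 2 to 3 mice, so p-values rest on the spread from pool to pool, and pooling narrows that below the spread of individual animals. The other 18 arrays, which entered the estimate of spread, came from ApoD-KO and wild-type mice in the same way, 3 arrays per group, from the cortex of mice aged 655 days and the hippocampus of mice aged 100 and 655 days.

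Apolipoprotein D is a secreted protein of the lipocalin family, whose members carry small hydrophobic molecules in a barrel-shaped pocket. It binds arachidonic acid and other lipids, and in the brain it is made mainly by glia, including oligodendrocytes and astrocytes. Its amount in the brain is known to rise with age, injury and oxidative stress. The comparison in young cortex asks which transcripts differ when the protein is missing, before the changes that come with age.

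Values were log2 signals of 23879 Ensembl gene IDs, and 14327 IDs with a mean above 6.63 log2 were tested. The deposited table carries no gene names, and the reference gene table matched 0 IDs, so results are given by ID, with no gene name or sequence, and the cortex label could not be checked against marker genes. Array medians of the 6 young cortex arrays lay between 7.37 and 7.39 log2. Across the tested IDs, which are not independent replicates, each young cortex array had r between 0.990 and 0.997 with the other cortex arrays and between 0.959 and 0.972 with the 12 hippocampus arrays. The root mean square deviation from the group mean was 0.0790 to 0.106 log2 on the 6 arrays, and 0.161 on replicate 1 of young KO hippocampus, the highest of the 24.

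In young cortex, 1 of the 14327 tested IDs differed between the genotypes, which is 0.00698% of them. ENSMUSG00000022548 was at 7.89, 8.14 and 8.03 log2 on the 3 KO arrays, against 11.73, 11.77 and 11.63 log2 on the 3 WT arrays. The groups did not overlap, and the 3 arrays of each genotype lay close together. The mean level was 8.02 ± 0.13 log2 in KO and 11.71 ± 0.07 log2 in WT (SD, n = 3 each). The limma difference for ENSMUSG00000022548 was -3.69 log2 (SE 0.088) with an adjusted p of 1.8e-17, so the ID fell 12.9-fold, with a 95% interval of 11.4-fold to 14.7-fold. No table used here says which gene this ID is, and the labels' knockout could therefore not be checked against the targeted gene by name. In RNA from whole tissue, fewer cells of a type and less RNA per cell cannot be told apart.

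On the KO arrays ENSMUSG00000022548 kept a signal that was 7.73% of the WT signal on the linear scale. Detection calls were not used here, so whether the KO signal lies above background is unknown, and the fold may be understated.

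**Figure D1:**
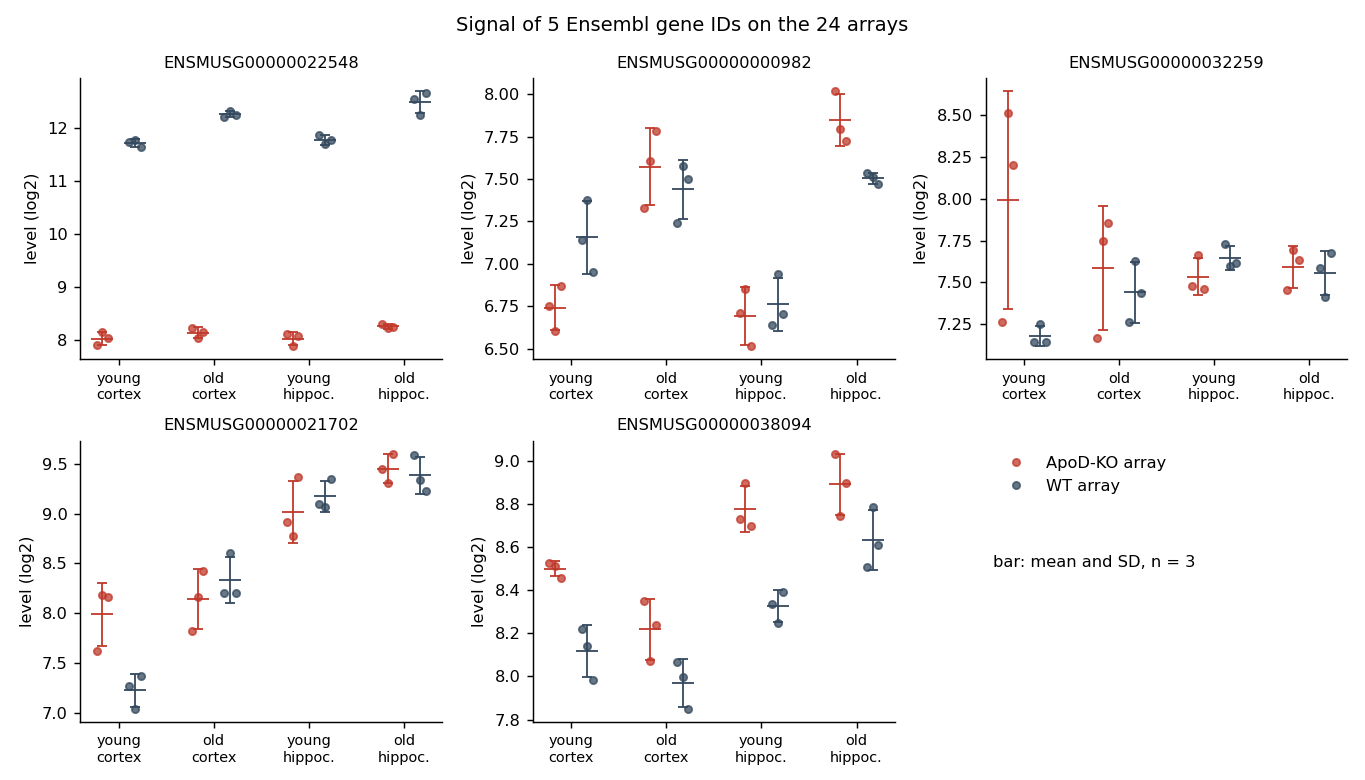
Level (log2, vertical axis) of 5 Ensembl gene IDs on the 24 arrays, by region and age, with ApoD-KO arrays in red to the left of WT arrays in grey; points are arrays and bars the mean and SD (n = 3). ENSMUSG00000022548 is separated in every combination, while the other IDs differ by under 1 log2 in young cortex.

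The remaining differences were small. Of the tested IDs, 7100 were higher and 7227 lower in KO, with a median difference of -0.00069 log2, and the 5th and 95th percentiles were -0.12 and 0.13 log2. A difference of over 0.5 log2 in either direction was measured for 10 IDs, 8 of them higher and 2 lower in KO, and one of over 1 log2 for 1 ID, the one that fell. Its change was 4.54 times as large, on the log2 scale, as the next largest, which was 0.81 log2 (1.76-fold). The second lowest adjusted p of the comparison was 0.303 with limma.

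**Figure D2:**
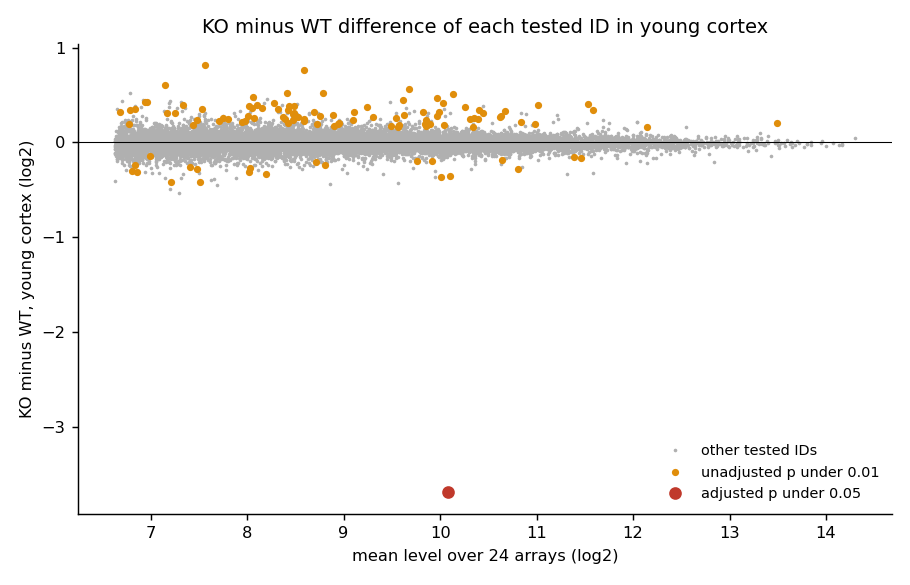
Difference KO minus WT in young cortex (log2, vertical axis) of each of the 14327 tested IDs against its mean level over the 24 arrays (log2, horizontal axis). One ID lies at -3.69, and the next largest difference is 0.81; orange points have an unadjusted p under 0.01.

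The precision bounds what these 6 arrays could show. The median SE of a difference was 0.0746 log2 and the median 95% interval reached 0.155 log2 to either side. The interval lay wholly within 1 log2 of 0 for 14310 IDs (99.9%), within 0.5 log2 for 13952 (97.4%) and within 0.25 log2 for 10316 (72%). For nearly all tested IDs a difference of 1 log2 in either direction lay outside the interval, and for 4011 IDs one of 0.25 log2 did not. Dim IDs were measured less tightly, with a median SE of 0.0851 log2 in the dimmest tercile by mean level (6.63 to 8.17 log2), against 0.0778 in the middle tercile and 0.0619 in the brightest one (9.63 to 14.3 log2).

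Before adjustment, 411 IDs had p under 0.05, of which 254 were higher and 157 lower in KO. That is 2.87% of the tested IDs, where a uniform spread of p-values would give 716 IDs. The counts per bin of p climbed instead towards 1, with 871 IDs in the last of 20 bins. The 3 KO and 3 WT arrays did not overlap for 958 IDs (6.69%), 467 of them higher and 491 lower in KO. With 3 arrays per group, random order also separates some IDs, so this count names no changed gene.

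**Figure D3:**
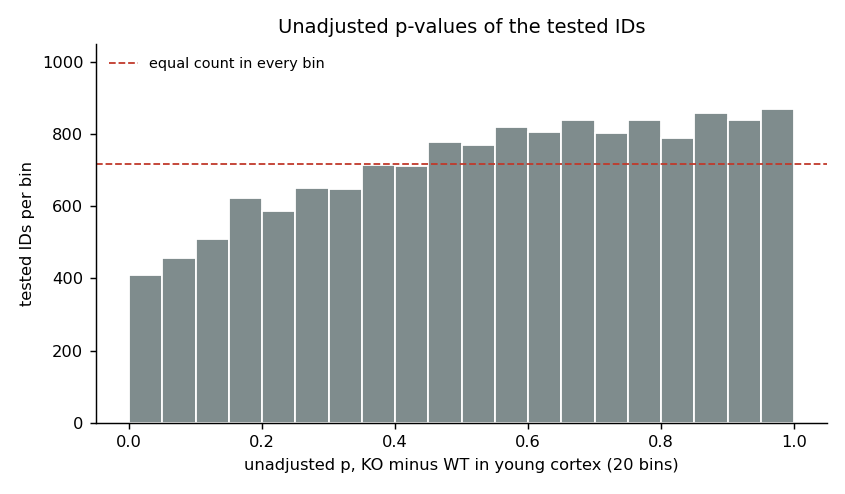
Number of tested IDs (vertical axis) in each of 20 bins of the unadjusted p for KO minus WT in young cortex (horizontal axis); the dashed line marks an equal count in each bin. The lowest bin holds 411 IDs and the highest 871.

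Of the 111 IDs (0.775%) with an unadjusted p under 0.01, most were higher in KO. There 89 IDs (0.621% of those tested) were higher in KO and 22 (0.154%) were lower, the ID that fell included, and below 0.001 the counts were 22 and 2. Higher IDs outnumbered lower ones in each tercile of mean level of the tested IDs, with 26 higher and 10 lower among the dimmest IDs, 34 and 3 in the middle and 29 and 9 among the brightest. The size of the excess depended on the filter, the scaling and single arrays. With no filter on mean level the counts under 0.01 were 103 higher and 69 lower, after quantile normalization 94 and 35, and from the 6 young cortex arrays alone 64 and 30. Without KO replicate 2 they were 33 higher and 15 lower, and without KO replicate 1 they were 119 and 24. Without WT replicate 3 they were 95 and 56, and without replicate 1 of young KO hippocampus 99 and 40. Apart from the ID that fell, none of these IDs was called in the fit to all arrays, so the counts describe the arrays and name no changed gene.

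Among IDs with separated groups and an unadjusted p under 0.01, the 2 with the largest positive differences were ENSMUSG00000032259 and ENSMUSG00000021702. ENSMUSG00000032259 was at 7.26, 8.51 and 8.20 log2 on KO replicates 1, 2 and 3, against 7.14, 7.25 and 7.15 log2 on the WT arrays. KO replicates 2 and 3 were high, and KO replicate 1 lay 0.01 log2 above the highest WT array. The mean was 7.99 ± 0.65 log2 in KO and 7.18 ± 0.06 log2 in WT (SD, n = 3 each), a difference of 0.81 log2 (SE 0.21, 95% interval 0.38 to 1.24) that was not called (limma adjusted p = 0.543). Without KO replicate 1 it was 1.18 log2 and past the threshold (limma adjusted p = 7.4e-04).

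ENSMUSG00000021702 was at 7.62, 8.18 and 8.16 log2 on KO replicates 1, 2 and 3, against 7.27, 7.04 and 7.37 log2 on the WT arrays. The groups did not overlap, and KO replicate 1 was again the lowest KO array. The mean was 7.99 ± 0.32 log2 in KO and 7.22 ± 0.17 log2 in WT (SD, n = 3 each). The difference of 0.76 log2 (SE 0.17) was not called (limma adjusted p = 0.358), and without KO replicate 1 it was 0.95 log2 (limma adjusted p = 0.049). Whether either ID marks a cell type, or tissue next to the cortex that was taken along in dissection, was not tested, because no ID has a gene name here.

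Among IDs lower in KO with separated groups and an unadjusted p under 0.01, the largest difference after the one that fell was that of ENSMUSG00000000982. It was at 6.75, 6.60 and 6.87 log2 on the KO arrays, against 7.14, 7.38 and 6.95 log2 on the WT arrays. The highest KO array lay 0.08 log2 below the lowest WT array. The means were 6.74 ± 0.13 log2 in KO and 7.16 ± 0.21 log2 in WT (SD, n = 3 each), and the difference of -0.42 log2 (SE 0.12) was not called (limma adjusted p = 0.918).

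The number of calls changed when KO replicate 1 was left out. Without it 9 IDs were called in place of 1, the ID that fell and 8 that were higher in KO. The 8 were picked by leaving that array out, so its low place among the KO arrays follows from the choice. On all 8, KO replicate 1 was lower than both other KO arrays, and on 5 of them it was above all 3 WT arrays. Their differences were 0.40 to 1.18 log2 without that array and 0.24 to 0.81 log2 with it, where their adjusted p lay between 0.303 and 1.000 with limma. Over all tested IDs the root mean square deviation of KO replicate 1 from its group mean was 0.0790 log2, the lowest of the 6 arrays. That of KO replicate 2 was 0.0794 log2. Levels on KO replicate 1 had r of 0.9962 and 0.9954 with KO replicates 2 and 3. With WT replicates 1, 2 and 3 the r was 0.9952, 0.9967 and 0.9934. Leaving out any single array of the 24 other than KO replicate 1 gave 1 call.

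The same array stood closest to WT among the 10 IDs with the largest positive differences, taken from those with separated groups and an unadjusted p under 0.01. On 9 of these 10, KO replicate 1 was the KO array nearest to the WT mean, which held for 34% of all tested IDs. The 10 were chosen on the same 6 arrays and are not independent, so this count is no test of that array. The mean level of the 10 IDs was 8.25, 8.69 and 8.59 log2 on KO replicates 1, 2 and 3, against 7.97, 7.95 and 7.96 log2 on the WT arrays. Since the IDs were chosen for separation on these 6 arrays, this difference describes the choice. The other 18 arrays entered the choice only through the estimate of spread and the filter on mean level. For comparison, the levels of the 10 IDs on those arrays are given. They lay at 8.25 to 8.59 log2 in old KO cortex and 8.48 to 8.68 log2 in old WT cortex, at 8.15 to 8.37 log2 in young KO hippocampus and 8.26 to 8.37 log2 in young WT hippocampus, and at 8.47 to 8.53 log2 in old KO hippocampus and 8.38 to 8.53 log2 in old WT hippocampus. The ranges of the genotypes overlapped in each of these 3 combinations. The 3 young WT cortex arrays were lower than the other 21 arrays, a low place that the choice of these IDs favours. The range of this mean over the 3 arrays of a group was 0.44 log2 in young KO cortex, 0.34 in old KO cortex, 0.21 in young KO hippocampus and 0.19 in old WT cortex, and between 0.019 and 0.16 in the other 4 groups.

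By the same limits on separation and p, the 9 IDs with the largest negative differences after the one that fell averaged 7.81, 7.76 and 7.84 log2 on the young KO cortex arrays, against 8.15, 8.17 and 8.09 log2 on the WT arrays. In old cortex their mean level was 8.21 to 8.29 log2 on KO arrays and 8.10 to 8.25 log2 on WT arrays. In old hippocampus it was 8.27 to 8.38 log2 on KO arrays, all of them above the WT arrays at 8.17 to 8.22 log2, the opposite order to young cortex. On 3 of these 9, KO replicate 1 of young cortex was the KO array nearest to the WT mean. In young hippocampus the ranges of the mean level were 7.90 to 8.07 log2 in KO and 7.99 to 8.06 log2 in WT.

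**Figure D4:**
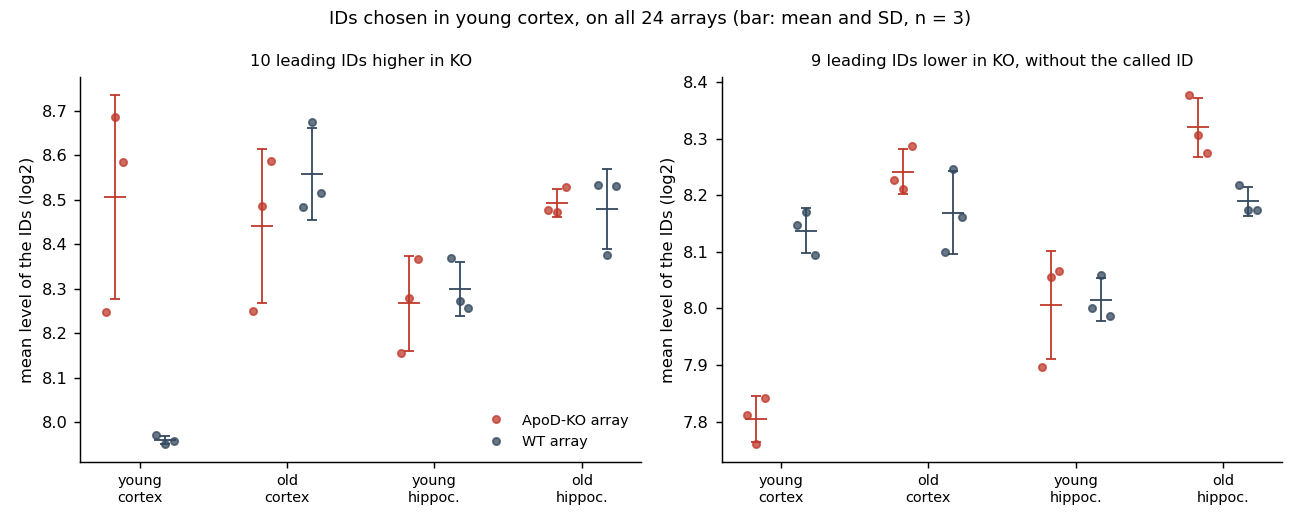
Mean level (log2, vertical axis) of 10 IDs higher in KO (left) and of 9 IDs lower in KO (right, without the one that fell), the largest differences in young cortex among IDs with separated groups and an unadjusted p under 0.01, on each of the 24 arrays; KO arrays are red and left of WT arrays in grey, with the mean and SD (n = 3). In young cortex the groups are separated by choice, and elsewhere the order of KO and WT varies.

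Whether the differences seen in young cortex recur was examined on the arrays of the other 3 combinations of region and age, none of which is shared with young cortex, although the estimate of spread is. KO minus WT averaged over those 3 combinations called 2 IDs (0.014% of those tested). One was ENSMUSG00000022548, with a difference of -4.04 log2 (SE 0.051) and a limma adjusted p of 3.0e-23. Over these 18 arrays the other, ENSMUSG00000038094, rose 1.25-fold (0.32 log2, SE 0.051, adjusted p = 0.026 by limma), a call that was lost under the replicate block and without each of 11 of those arrays in turn. These were KO replicates 1 and 3 and WT replicates 2 and 3 of old cortex, KO replicate 2 and WT replicates 1 and 2 of young hippocampus, and KO replicates 1 and 3 and WT replicates 1 and 3 of old hippocampus.

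In young cortex ENSMUSG00000038094 was at 8.52, 8.51 and 8.46 log2 on the KO arrays, against 8.22, 8.14 and 7.99 log2 on the WT arrays. All 3 KO arrays were above all 3 WT arrays, with a spread between KO arrays of 0.07 log2. The difference was 0.38 log2 (SE 0.088, 95% interval 0.20 to 0.57, 1.30-fold), with an unadjusted p of 3.0e-04 in the fit and an adjusted p of 0.358 with limma, so it was not called in young cortex alone. It was 0.25 log2 in old cortex, 0.45 in young hippocampus and 0.26 in old hippocampus, and the KO and WT arrays overlapped only in old hippocampus.

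The differences of the 3 other uncalled IDs named above were smaller or opposite in the other combinations. ENSMUSG00000032259 differed by 0.15 log2 in old cortex, -0.11 in young hippocampus and 0.04 in old hippocampus, with overlapping groups in each. ENSMUSG00000021702 differed by -0.20, -0.15 and 0.07 log2 in the same order, again with overlap. Its young WT cortex arrays were the lowest of the 24, a low place that the choice of this ID favours. ENSMUSG00000000982 differed by 0.13 and -0.07 log2 in old cortex and young hippocampus, and by 0.34 log2 in old hippocampus, where all KO arrays were above all WT arrays.

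Over the 110 uncalled IDs with an unadjusted p under 0.01 in young cortex, 46 (41.8%) had the same sign in the average of the other 3 combinations, beside 47.8% of all uncalled tested IDs. The median difference of the 89 higher ones was 0.29 log2 in young cortex and -0.012 log2 in that average. By combination, the same sign was found for 29 of the 110 in old cortex (26.4%, beside 43.6% of all uncalled IDs) and 50 in young hippocampus (45.5%, beside 52.8%). In old hippocampus it was found for 71 (64.5%, beside 49.9%), namely 64 of the 89 higher IDs (71.9%) and 7 of the 21 lower ones (33.3%). The median difference in old hippocampus was 0.036 log2 for the higher and 0.043 log2 for the lower IDs. The shares of higher and lower IDs were 24.7% and 33.3% in old cortex, and 41.6% and 61.9% in young hippocampus.

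**Figure D5:**
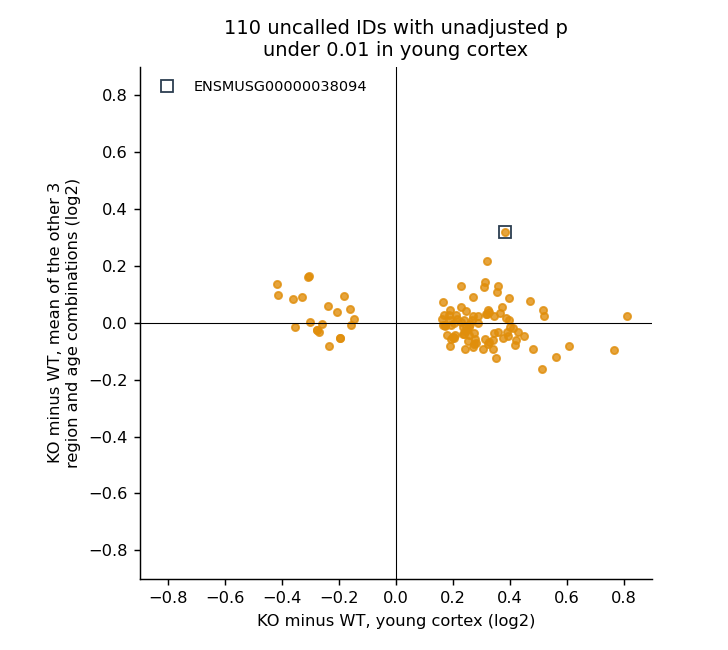
Difference KO minus WT (log2) in young cortex (horizontal axis) and averaged over old cortex, young hippocampus and old hippocampus (vertical axis) for the 110 uncalled IDs with an unadjusted p under 0.01 in young cortex; each point is an ID. The points lie near 0 on the vertical axis, and ENSMUSG00000038094, at 0.38 and 0.32, lies highest.

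The differences between combinations were tested as interactions. The KO effect in young cortex minus that in old cortex called 0 of the 14327 IDs with limma, where the lowest adjusted p was 0.287 and 889 IDs had p under 0.05 before adjustment. The KO effect in young cortex minus that in young hippocampus called 0 as well with limma, and there 545 IDs had p under 0.05 before adjustment. For ENSMUSG00000021702 these differences were 0.96 log2 (95% interval 0.45 to 1.47) and 0.92 log2 (0.41 to 1.43), and for ENSMUSG00000032259 they were 0.67 log2 (0.058 to 1.27) and 0.92 log2 (0.32 to 1.53), with limma adjusted p-values between 0.415 and 1.000. Both IDs were chosen for a large difference in young cortex, which enters each of these values. The choice therefore favours large values here, and they do not test whether the differences are particular to young cortex. The fall of ENSMUSG00000022548 was 0.43 log2 smaller in young than in old cortex (95% interval 0.17 to 0.69, limma adjusted p = 0.544). Its WT mean was 11.71 log2 in young and 12.26 log2 in old cortex, and its KO mean 8.02 and 8.13 log2. The difference between its effects in young cortex and young hippocampus was 0.07 log2 (-0.19 to 0.33). Without young WT cortex replicate 3, the first interaction called 2 IDs, and without young KO hippocampus replicate 1 it called 3. Without young KO cortex replicate 1, the second called 4.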

How the data were processed

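RNA of 24 pools was measured on Affymetrix arrays, 3 per group in 8 groups named by the titles. The deposited table holds log2 signals, a unit inferred from their range of 3.99 to 14.4 and the array medians of 7.31 to 7.42. The submitters' processing notes name MAS5 and RMA for the deposited values. Not given in the sources used here: their roles, the array model and the probe-to-gene rule. No hybridization batch is labelled.

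From these values, limma 3.58.1 in R 4.3.3 was fitted to all 24 arrays with 8 group means (16 residual degrees of freedom) and eBayes, after leaving out the 9552 IDs at or below the 40th percentile of mean level. Two-sided p-values were corrected by the Benjamini-Hochberg method over all tested IDs, and an ID was called, and is said to have risen or fallen, at an adjusted p under 0.05. The fit was tested on simulated data. The number of arrays limits the precision.

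Comparisons, lists and the rule for named IDs were chosen with earlier results of these data known. The rule took the called IDs and, among IDs with separated groups and an unadjusted p under 0.01, the 10 largest differences in each direction, of which 2 per direction are named because no gene names matched. For that reason 0 of 26 gene lists were examined, and the neighbours of Apod could not be picked out among the IDs. Whether a named ID, ENSMUSG00000038094 included, lies beside Apod was not tested. Alternatives were other filters, scalings, moderation, array weights, subsets of arrays, the replicate number as a block and leaving out each array.

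The labels do not say that replicate numbers pair the pools, and they were not treated as pairs. The correlation of deviations between same-numbered KO and WT arrays of young cortex was 0.11, 0.0057 and 0.29.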

Additional observations from a re-analysis of the deposited data

How the results depend on the processing

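The fall of ENSMUSG00000022548 in young cortex was called in each of 36 alternatives, with values between -3.75 and -3.63 log2. The count of 1 called ID in young cortex was also found in 35 of the 36, the replicate block included (1 call). In fits without 1 array it ranged from 1 to 9, with 9 without young KO cortex replicate 1, which also brought ENSMUSG00000032259 and ENSMUSG00000021702 past the threshold. Of the other uncalled IDs, ENSMUSG00000000982 and ENSMUSG00000038094 stayed uncalled, with the sign they had, in each alternative that tested them. The count for KO minus WT over the other 3 combinations was 1 under the replicate block, in place of 2, and 1 to 2 without 1 array. The difference from old cortex ranged from 0 to 3 calls without 1 array, and that from young hippocampus from 0 to 4. Leaving out arrays other than those of young cortex and replicate 1 of young KO hippocampus was added after seeing the data. In these fits the cause of the changes was not tested. Replicate numbers are not stated to pair pools, and not every array correlated best with its own number. The planned counts of gene lists were not run, because no ID matched a gene name. Signal over background is unknown, which limits the folds of dim IDs.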

Other observations

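Of the 9552 IDs below the filter on mean level, 5 differed by over 0.5 log2 between KO and WT young cortex, with differences from -0.95 to 0.64 log2. Fitted by themselves with limma, 0 of them were called, and 398 had an unadjusted p under 0.05.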
